A study of Capra hircus with 8 samples.

Results

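The predicted piRNAs placed in LINE repeats were taken from a small RNA sequencing table of goat mammary gland cells as every piRNA entry whose position text names a LINE class. They were 1781 of the 2888 predicted piRNAs, or 61.7%, in a table of 5093 features. The 8 libraries came from cells of the Lanshan dairy goat grown in 3D culture, and each of 4 groups had 2 libraries. The groups were 3NC and 5NC, labelled c3NC and c5NC and read here as controls, overexpression, in which a virus carried the circular RNA circRNA28250, and knockdown, labelled cKDmix, in which circRNA28250 was inhibited. The series text names 5NC beside overexpression and 3NC beside knockdown, and the groups were compared on that basis, since the labels do not state the pairing. The labels do not say what the NC constructs were, how the cells were isolated, or whether paired libraries are separate cultures. A p-value here therefore reflects the spread of libraries that may be technical repeats. How much circRNA28250 the cells held was not analysed here.

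PIWI-interacting RNAs (piRNAs) are small RNAs that guide PIWI proteins, above all in animal germ cells, to matching transcripts of mobile elements, which are then cut or silenced. LINEs, long interspersed nuclear elements, are retrotransposons that copy themselves through an RNA intermediate. Within mammalian genomes, L1 is a lineage that still moves, while L2 and CR1 are mostly old and no longer move. RTE-BovB is a family present in ruminants, though not in them alone, and thought to have entered them by transfer from another animal. In the table these piRNAs are predictions from reads, so a match to a LINE copy does not show that PIWI proteins bound the RNA. Of 17 germ line and pluripotency miRNAs, 5 were in the table, and their reads, summed and scaled to 1000000 known miRNA reads, lay between 13.1 and 1449. The 8 epithelial miRNAs in the table, out of 10 listed, lay between 114.5 and 13678 on the same scale, while the 5 mesenchymal miRNAs lay between 493.0 and 112612. Per known miRNA read, several lists were higher in knockdown than in 3NC. On the same scale, blood miRNAs (4 of 6 in the table) were at 12328 and 18352 in knockdown and 2540 and 1422 in 3NC, and the endothelial miR-126 was at 20594 and 33617 against 552 and 637. The epithelial list was at 2995 and 2865 in knockdown against 260.8 and 139.9 in 3NC, the mesenchymal list at 112612 and 60331 against 21353 and 30547, and the germ line list at 1449 and 323.9 against 100.8 and 106.7. Muscle miRNAs (4 of 4) were at 821.4 and 66738 against 170.8 and 2848. In 5NC and overexpression 1, miR-126 lay between 201.1 and 285.1, and in overexpression 2 it was at 10632. Blood miRNAs in overexpression 2 were at 12866, above knockdown 1, and muscle miRNAs at 5936. The highest epithelial value, 13678, and the lowest mesenchymal value, 493.0, were both in 5NC 1. The part of these cell types in the results below was not tested.

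L1 held the most LINE piRNAs, 908 entries or 51.0%, followed by L2 with 466 or 26.2% and RTE-BovB with 366 or 20.6%. The remaining 41 entries were 34 of CR1, 6 of RTE-X and 1 of L1-Tx1. No predicted piRNA of the table lay in a SINE repeat, while 632 lay in LTR and 475 in DNA repeats. The positions name intervals with a median length of 428.5 bases and a range of 34 to 3815 bases, which is far longer than a piRNA, so an interval was taken to be the repeat copy. The 1781 entries lay in 1450 such copies, 740 of L1, 373 of L2, 301 of RTE-BovB and 36 of the other classes. Several small RNAs shared a copy in 177 cases, which held 508 entries, and such entries are not independent of each other. Median copy length was 472.5 bases for L1, 300.0 for L2, 663.0 for RTE-BovB and 164.5 for the rest. The sign given with the position was plus for 907 entries and minus for 874, and no copy carried both signs. Copies within 1000 bases of each other formed 1446 loci, and 0 of them held both signs.

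Detection differed far more between libraries than depth did. LINE entries numbered 53 and 129 in the 3NC libraries, 90 and 92 in 5NC, 156 and 38 in overexpression, and 380 and 1116 in knockdown. Both knockdown libraries thus listed more than any of the other 6, and the overexpression and 5NC libraries overlapped. The other predicted piRNAs were also listed most in the knockdown libraries, so that much was not particular to LINE. The gap was wider for LINE, which made up 61.1% and 67.2% of the predicted piRNA entries in knockdown and 38.7% to 53.5% elsewhere. LTR entries numbered 96 and 362 in knockdown and 23 to 94 elsewhere, and DNA repeat entries 146 and 182 against 10 to 104. All reads of the table summed to 8084584 and 13080581 in 3NC and to 15729279 and 12413546 in 5NC. In overexpression they summed to 12459225 and 6889730, and in knockdown to 6588354 and 32066029. Knockdown 1 was therefore the shallowest library and knockdown 2 the deepest. No positive value of a predicted piRNA was below 10 reads in any library, so an entry listed at 0 can have had up to 9 reads or can have gone unpredicted there. At the depth of the shallowest library, with the same 10 reads required, 3NC would be expected to list 43.8 and 56.1 entries, 5NC 43.6 and 44.9, overexpression 52.3 and 36.5, and knockdown 380 and 180.0. On that scale the 6 libraries outside knockdown lay close together and both knockdown libraries stayed above them. Ribosomal RNA took 27.3% of all reads in knockdown 1 and 1.14% to 5.21% in the other libraries, and its part in the number of entries was not tested.

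**Figure D1:**
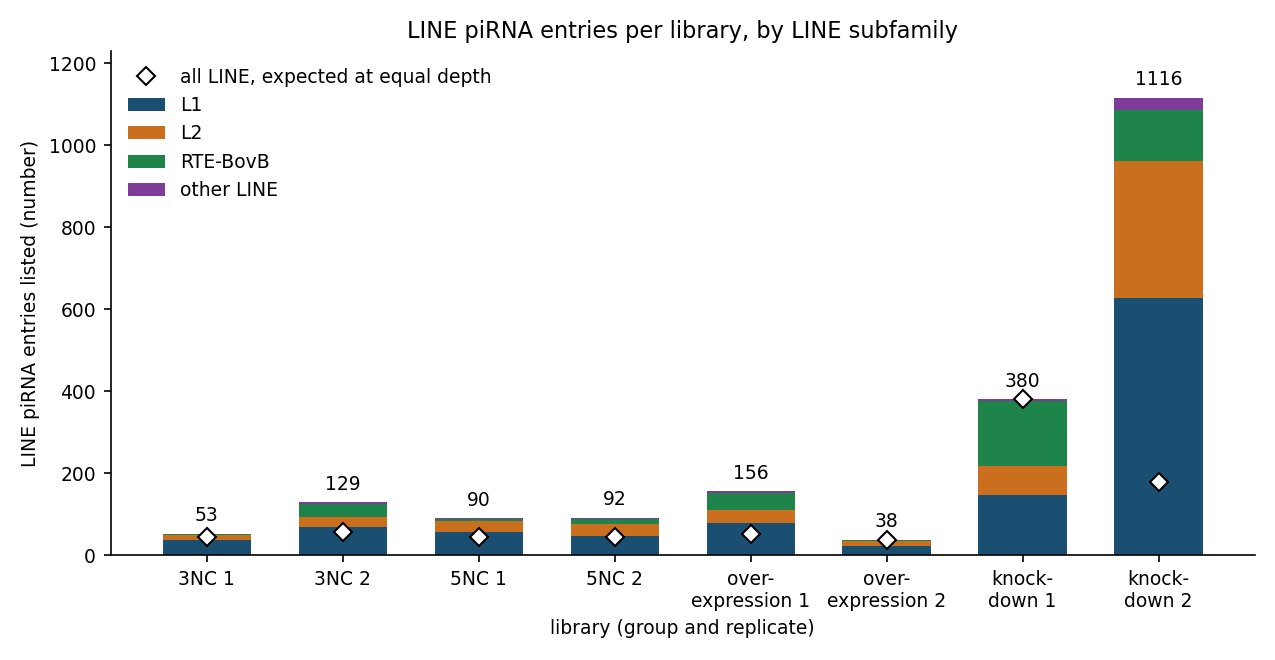
Number of LINE piRNA entries listed in each library (y axis), stacked by LINE subfamily, with the total above each bar and a diamond for the number expected at the depth of the shallowest library. Knockdown 1 with 380 and knockdown 2 with 1116 stand above the other libraries, which list 38 to 156, and the diamonds of the 6 libraries outside knockdown lie between 36.5 and 56.1.

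L1, L2 and the other classes had the most entries in knockdown 2 and RTE-BovB had the most in knockdown 1. L1 entries numbered 38 and 69 in 3NC, 58 and 46 in 5NC, 80 and 23 in overexpression, and 146 and 627 in knockdown. L2 entries numbered 12 and 25 in 3NC, 26 and 31 in 5NC, 31 and 13 in overexpression, and 72 and 334 in knockdown. For RTE-BovB the counts were 2 and 30 in 3NC, 5 and 12 in 5NC, 42 and 1 in overexpression, and 157 and 125 in knockdown. RTE-BovB was the only one of these subfamilies with more entries in knockdown 1 than in knockdown 2, although knockdown 2 was the deepest library. It made up 41.3% of the LINE entries of knockdown 1 and 11.2% of those of knockdown 2. The other classes numbered 1 and 5 in 3NC, 1 and 3 in 5NC, 3 and 1 in overexpression, and 5 and 30 in knockdown.

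Nearly all LINE piRNAs were listed in 1 library. That was the case for 1678 entries, or 94.2%, while 40 were listed in 2 libraries, 20 in 3, 14 in 4, 6 in 5, 13 in 6, 8 in 7 and 2 in all 8. Taking the repeat copy as the unit changed little, with 1355 of 1450 copies, or 93.4%, in 1 library and 3 in all 8. Of the private entries, 170 lay in copies that carried other entries in other libraries. Private entries made up 93.0% of L1, 93.8% of L2, 98.4% of RTE-BovB and 90.2% of the other classes. Only 6 RTE-BovB entries were shared, none in more than 3 libraries, and 0 of the 282 RTE-BovB entries of the knockdown group were listed in both of its libraries. Without knockdown 2, the deepest library, 696 entries remained listed and 599 of them, or 86.1%, were private. Without both knockdown libraries, an alternative chosen after seeing the data, 252 of 347 entries or 72.6% were private among the other 6.

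By library, 7 and 62 entries were private in 3NC, 44 and 28 in 5NC, 103 and 3 in overexpression, and 346 and 1085 in knockdown. Many lay near the list minimum, as 10 reads in knockdown 2 are 0.312 reads per 1000000 reads of the library (RPM) and 10 reads in knockdown 1 are 1.52 RPM. In knockdown 2, 684 of its 1085 private entries were at a level too low to give 10 reads in any other library, and 152 were above the limit of all 7 others. In knockdown 1 all 346 were above the limit of every other library, as any listed entry of the shallowest library must be. Over all libraries 537 private entries, or 32%, exceeded the limit of the other 7, and 43 exceeded it by at least 10 times, of which 38 were in knockdown 2. Entries outside this set can be missing elsewhere through depth alone. Entries just above the limit can also fall below 10 reads in another library, and 244 of the 537 were above 2 times the limit. This was not tested entry by entry.

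**Figure D2:**
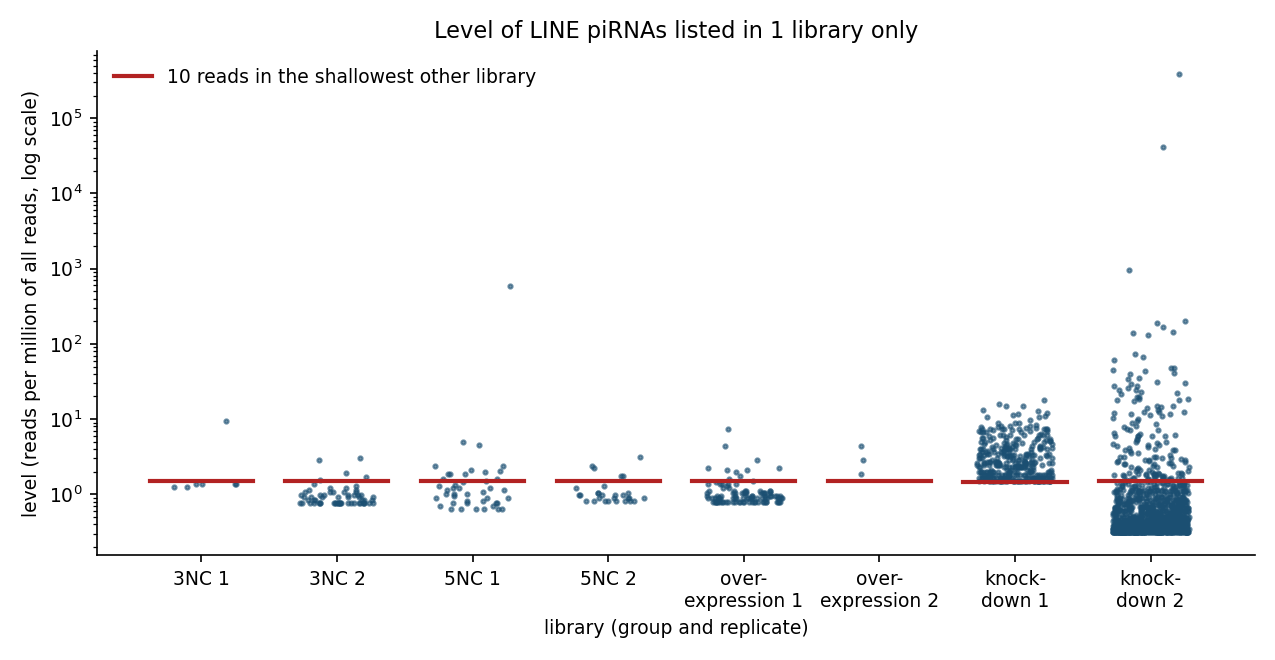
Level of each LINE piRNA listed in 1 library only, in RPM (log scale), by library; the red line marks 10 reads in the shallowest of the other libraries. All 346 private entries of knockdown 1, the shallowest library, lie above the line by construction, against 152 of 1085 in knockdown 2, where the highest point is at 391658 RPM.

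Libraries of a group shared few entries where they listed many. The 3NC libraries had 38 entries in common, 71.7% of the shorter and 29.5% of the longer list. The 5NC libraries shared 25, or 27.8% and 27.2%. The overexpression libraries shared 19, or 12.2% of the longer list of overexpression 1 and 50.0% of that of overexpression 2. Sharing did not always follow group. Overexpression 2 shared 31 entries with 3NC 2, and 5NC 2 shared 48 with 3NC 2, more than either shared within its group. The 3NC 1 library shared the most with 3NC 2, at 38 beside 37 with 5NC 2. The knockdown libraries, with the longest lists, shared 22 entries, 5.79% of knockdown 1 and 1.97% of knockdown 2. Every entry of knockdown 1 had at least 10 reads there, so the same proportion of reads would have given more than 10 in knockdown 2. The long lists of the 2 knockdown libraries were thus mostly made of different entries. Entries listed in both libraries of a group and in no other numbered 0 in 3NC, 6 in 5NC, 0 in overexpression and 3 in knockdown. The 3 of knockdown were novel_pir2180 in L2, with 45 and 15 reads, novel_pir2341 in L1, with 12 and 33 reads, and novel_pir982 in L2, with 11 and 21 reads, the last named after its values were seen.

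A single L1 piRNA decided the LINE total of knockdown 2. The entry novel_pir1385, in an L1 copy on the minus sign at NC_030815.1:24097564-24097884, had 12558904 reads in knockdown 2 and was listed at 0 in the other 7 libraries. It made up 39.2% of all reads of that library and 89.5% of its LINE reads. The same copy held novel_pir1384 with 29 reads and novel_pir1386 with 4412 reads, also in knockdown 2 alone. The next was novel_pir2713, in an L2 copy on the plus sign at NW_017189517.1:2874204-2874650, with 1342013 reads in knockdown 2 and 0 listed elsewhere. Together they made up 99.1% of the LINE reads of knockdown 2. The summed class of unnamed repeat reads in that library had 12939690 reads, 1089452 fewer than its LINE piRNAs, so the LINE piRNA reads were not a subset of that class. The sequences of these RNAs are not printed, and whether they match other features of the table was not tested.

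Other highly read LINE piRNAs of knockdown 2 lay far below this pair. In L1, novel_pir941 at NC_030811.1 had 31152 reads and novel_pir429 at NC_030808.1 had 6543, and both were listed at 0 in the other libraries. The highest RTE-BovB entries, novel_pir1872 with 2345 reads and novel_pir1027 with 1268, and the highest CR1 entry, novel_pir1501 with 478, were likewise in knockdown 2 only. In 5NC 1 a comparable place was held by novel_pir857, an L2 entry at NC_030811.1:73241398-73241621, which had 9330 reads there, 74.0% of that library's LINE reads, and was listed at 0 in the other 7. The L2 copy of novel_pir857 also gave novel_pir858 with 19 reads in 5NC 1 and novel_pir859 with 10 reads in knockdown 2.

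The private entries with the most reads in the remaining libraries were much lower. They were novel_pir895 in L1 with 77 reads in 3NC 1, novel_pir2470 in CR1 with 40 in 3NC 2 and novel_pir308 in RTE-BovB with 39 in 5NC 2. In overexpression they were novel_pir2655 in L2 with 92 reads in overexpression 1 and novel_pir2185 in RTE-BovB with 30 in overexpression 2. In knockdown 1 the highest was novel_pir372 in RTE-BovB with 120 reads, followed among the named entries by novel_pir348 in RTE-BovB with 106 and novel_pir1228 in RTE-X with 88. At 18.2 RPM, novel_pir372 was above novel_pir1501 of knockdown 2, at 14.9 RPM, and below novel_pir1027, at 39.5 RPM.

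Summed over all members, LINE piRNA reads were 0.0578% and 0.0419% of all reads in 3NC, 0.0802% and 0.0313% in 5NC, 0.0375% and 0.0334% in overexpression, and 0.154% and 43.8% in knockdown. Knockdown did not overlap 3NC, and overexpression lay within the 5NC range. The log2 ratio of the group means was 8.78 for knockdown against 3NC (exact two-sided permutation p = 0.33, the smallest that 2 against 2 libraries allow). Without knockdown 2 the ratio was 1.62. For overexpression against 5NC the log2 ratio was -0.65 (exact permutation p = 1) and for 3NC against 5NC -0.16 (exact permutation p = 1). Without 5NC 1, which holds novel_pir857, these became 0.18 and 0.67. Leaving the 2 highest entries out of each library gave 0.0249% and 0.0299% in 3NC, 0.0193% and 0.0199% in 5NC, 0.0323% and 0.0250% in overexpression, and 0.138% and 0.400% in knockdown. On these values, computed after the highest entries had been seen, neither overexpression nor 3NC overlapped 5NC, and knockdown was above all 3 other groups. A share of reads depends on the other classes as well. Known miRNA reads were 18.4% and 14.8% of all reads in 3NC, 25.8% and 18.9% in 5NC, 36.2% and 4.09% in overexpression, and 2.35% and 0.308% in knockdown. Their part in these differences was not tested.

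**Figure D3:**
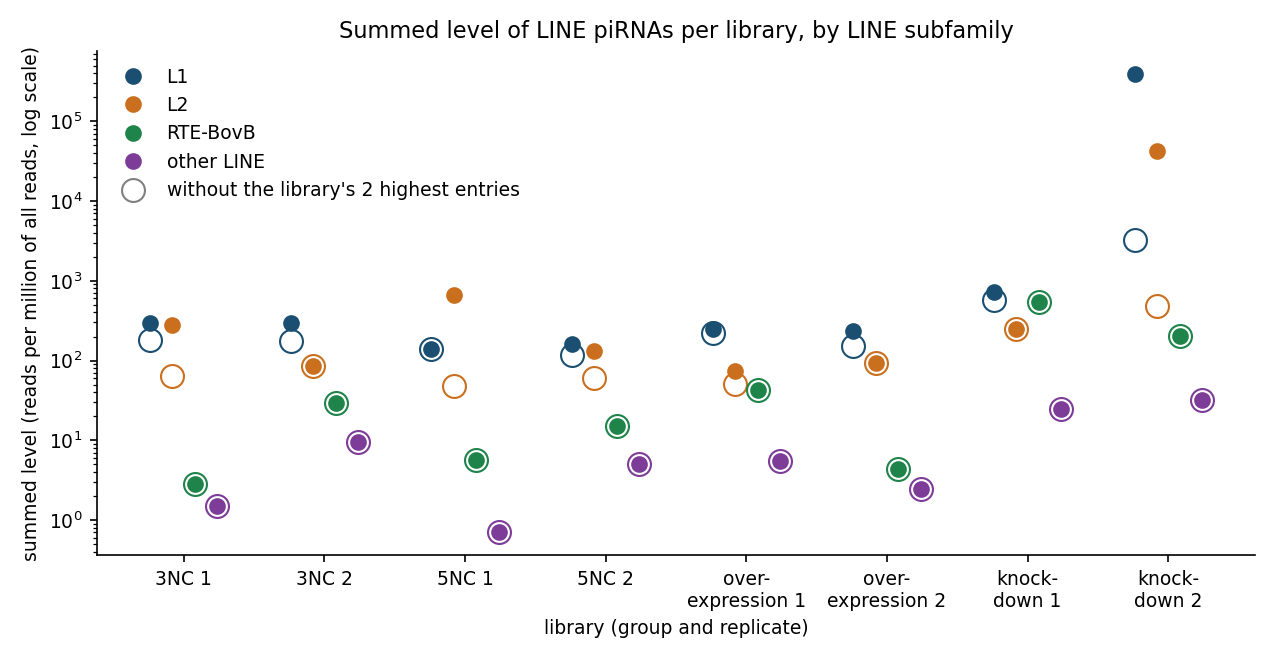
Summed level of the LINE piRNAs of each subfamily in each library, in RPM (log scale); filled points use all entries and open circles leave out the 2 highest LINE entries of the library. L1 in knockdown 2 drops from 394933 to 3275 RPM without them, and L2 in 5NC 1 drops from 656.9 to 47.9.

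By subfamily, the summed level of L1 was 291.7 and 295.3 RPM in 3NC, 138.3 and 161.4 in 5NC, 251.3 and 234.3 in overexpression, and 731.6 and 394933 in knockdown. L1 is the subfamily whose libraries of a group lay closest together outside knockdown. Its mean was 242.8 ± 12.0 in overexpression and 149.8 ± 16.3 in 5NC (SD, n = 2 libraries), a log2 ratio of 0.70 with no overlap and an exact permutation p of 0.33. In 3NC it was 293.5 ± 2.59 (SD, n = 2), also without overlap with 5NC and with the same exact p of 0.33. The log2 ratio of 3NC to 5NC was 0.97. Without the 2 highest LINE entries of each library L1 was at 181.2 and 175.5 RPM in 3NC, 138.3 and 118.1 in 5NC, and 223.9 and 150.1 in overexpression. The log2 ratios were then 0.48 for 3NC and 0.54 for overexpression against 5NC, both still without overlap.

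L2 differed more than L1 between the libraries of each control, with 281.8 and 85.3 RPM in 3NC, 656.9 and 131.1 in 5NC, 74.7 and 93.0 in overexpression, and 246.8 and 42337 in knockdown. Overexpression lay below 5NC without overlap, at a log2 ratio of -2.23 (exact permutation p = 0.33), and novel_pir857 made up most of the L2 level of 5NC 1. Without the 2 highest LINE entries of each library the direction turned, with 50.4 and 93.0 RPM in overexpression and 47.9 and 61.1 in 5NC, a log2 ratio of 0.40 with overlap. The ratio of 3NC to 5NC turned likewise, from -1.10 to 0.45. RTE-BovB summed to 2.84 and 29.0 RPM in 3NC, 5.72 and 15.2 in 5NC, 43.3 and 4.35 in overexpression, and 534.3 and 205.8 in knockdown. Its knockdown mean of 370.1 ± 232.3 stood against 15.9 ± 18.5 in 3NC (SD, n = 2), a log2 ratio of 4.54 with an exact permutation p of 0.33. This gap did not rest on the 2 highest LINE entries of either knockdown library, since none of them was in RTE-BovB. The other classes summed to 1.48 and 9.48 RPM in 3NC, 0.699 and 4.99 in 5NC, 5.46 and 2.47 in overexpression, and 24.6 and 32 in knockdown.

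The 29 entries listed in 5 or more libraries were 19 of L1 and 10 of L2, in 19 copies, and none was in RTE-BovB or another class. Of these 29, the 3NC libraries listed 28 and 29, 5NC 12 and 25, overexpression 19 and 25, and knockdown 23 and 19. The library 5NC 1 thus had 17 of them at 0, although it was the second deepest. Their summed level was 490.3 and 256.5 RPM in 3NC, 68.3 and 207.4 in 5NC, 164.1 and 261.0 in overexpression, and 288.1 and 67.2 in knockdown. Unlike the totals, this summed level was not highest in knockdown. Listing in 5 or more libraries leaves out every entry found in knockdown alone, so this contrast is partly set by the choice of entries.

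**Figure D4:**
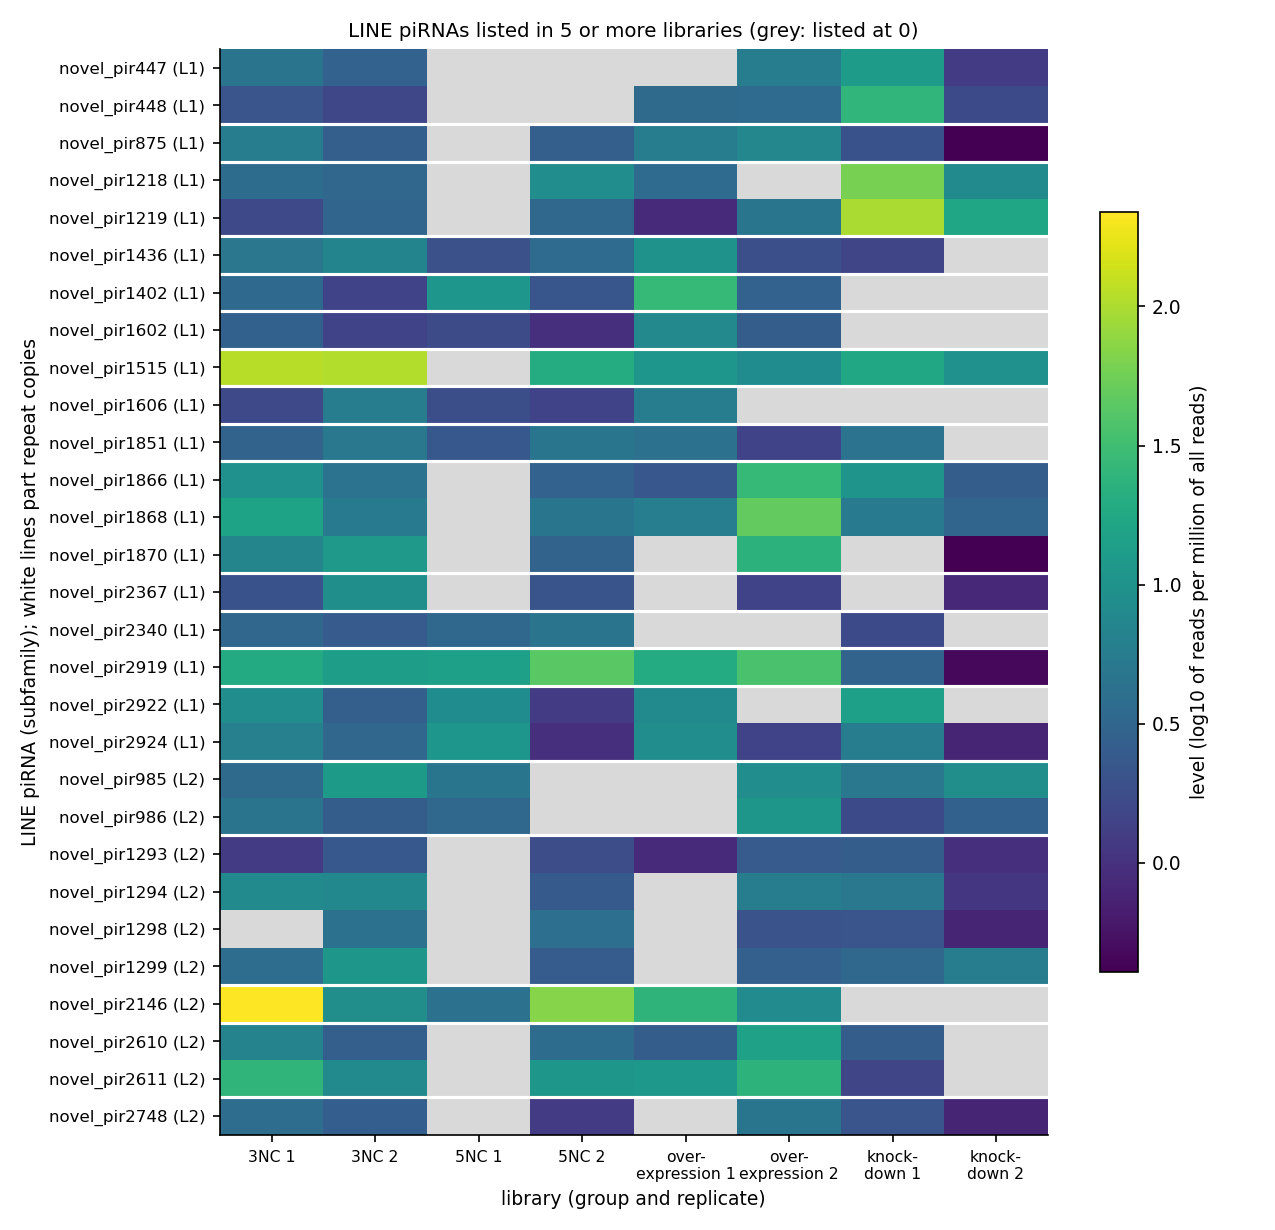
Level of the 29 LINE piRNAs listed in 5 or more libraries, one per line, as log10 of RPM, with grey where an entry was listed at 0 and white lines between repeat copies. Grey cells gather in 5NC 1, where 17 of the 29 are at 0, and 3NC 2 has none.

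The 2 entries found in all 8 libraries were both of L1. The entry novel_pir2919, at NW_017189840.1:187786-188731, had 155 and 180 reads in 3NC, 220 and 537 in 5NC, 242 and 246 in overexpression, and 20 and 15 in knockdown. In RPM this was 19.2 and 13.8 in 3NC, 14.0 and 43.3 in 5NC, 19.4 and 35.7 in overexpression, and 3.04 and 0.468 in knockdown. Both knockdown libraries were below all others on either scale. In the fit over all features the change against 3NC was -2.00 ± 1.22 on the log2 scale (SE, edgeR, adjusted p = 0.40). DESeq2 called this entry lower, at -5.15 ± 1.37 on the log2 scale (SE, adjusted p = 0.0012). The 2 changes are on different scalings, as the median over all 970 features was -3.28 in DESeq2 and -0.21 in edgeR. DESeq2 called 29.5% of all features lower. The entry novel_pir2924, at NW_017190134.1:223-1873, had 51 and 42 reads in 3NC, 173 and 12 in 5NC, 109 and 10 in overexpression, and 37 and 25 in knockdown. Its libraries overlapped between most groups, with the highest and nearly the lowest count both in 5NC.

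Among entries of 7 or 6 libraries, novel_pir1515 in L1, at NC_030817.1:42763021-42763253, had 893 and 1387 reads in 3NC, 0 and 250 in 5NC, 139 and 59 in overexpression, and 112 and 313 in knockdown. It was highest in the 2 libraries of 3NC and was the LINE entry with the most reads in 3NC 2. The L2 entry novel_pir2146, at NC_030825.1:23540722-23541496, had 1764 and 118 reads in 3NC, 68 and 869 in 5NC, 303 and 58 in overexpression, and was listed at 0 in both knockdown libraries. The libraries of each control differed widely and overlapped those of overexpression. For novel_pir1219 in L1, at NC_030813.1:32357299-32357795, the counts were 13 and 41 in 3NC, 0 and 41 in 5NC, 11 and 32 in overexpression, and 654 and 522 in knockdown. Both knockdown libraries were far above the other 6. The neighbouring novel_pir1218 in the same copy had 30 and 42 reads in 3NC, 0 and 110 in 5NC, 46 and 0 in overexpression, and 392 and 266 in knockdown. As a share of all reads, novel_pir1218 was not higher in knockdown 2, the deepest library, than in 5NC 2. The edgeR change of novel_pir1219 in knockdown against 3NC was 5.75 ± 2.20 on the log2 scale (SE, adjusted p = 0.28), which did not pass the threshold of 0.05, and that of novel_pir1218 was 4.43 ± 2.30 (SE, edgeR adjusted p = 0.36).

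The L1 copy at NC_030809.1:79067844-79068145 gave novel_pir448 and novel_pir447, both listed at 0 in the 2 libraries of 5NC. The entry novel_pir448 had 17 and 20 reads in 3NC, 44 and 25 in overexpression, and 168 and 53 in knockdown. For novel_pir447 the counts were 37 and 38 in 3NC, 0 and 40 in overexpression, and 84 and 40 in knockdown. In knockdown against 3NC, novel_pir448 was at 3.62 ± 1.41 on the log2 scale (SE, edgeR adjusted p = 0.29). That change depends on the scaling of the fit. In RPM novel_pir448 was at 2.10 and 1.53 in 3NC and 25.5 and 1.65 in knockdown, so knockdown 2 lay within the 3NC range. The L1 entry novel_pir1868 had 125 and 71 reads in 3NC, 0 and 58 in 5NC, 75 and 334 in overexpression, and 35 and 100 in knockdown, and led overexpression 2. Its overexpression libraries were above those of 5NC, at 4.55 ± 2.29 on the log2 scale (SE, edgeR adjusted p = 0.56).

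Copies with many entries gave the clearest picture of 1 repeat across libraries. An L1 copy on the minus sign, at NC_030817.1:43770457-43770761, held 14 entries, novel_pir1605 to novel_pir1618. All 14 were listed in 5NC 1, 8 each in 3NC 2 and 5NC 2, 2 each in 3NC 1 and overexpression 1, 1 in knockdown 2 and 0 in overexpression 2 and knockdown 1. Summed reads of that copy were 23 and 234 in 3NC, 362 and 107 in 5NC, 105 and 0 in overexpression, and 0 and 10 in knockdown. Most of its reads thus came from the controls, with overexpression 1 beside them.

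An L2 copy on the plus sign, at NC_030814.1:27116089-27116357, held 13 entries, novel_pir1292 to novel_pir1304, and showed another pattern. All 13 were listed in knockdown 2, against 3 and 6 in 3NC, 0 and 5 in 5NC, 2 and 5 in overexpression, and 4 in knockdown 1. The summed reads were 106 and 396 in 3NC, 0 and 147 in 5NC, 22 and 108 in overexpression, and 86 and 1798 in knockdown. The highest of its entries, novel_pir1301 with 631 reads, was private to knockdown 2, where novel_pir1302 had 479.

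The L1 copy at NW_017190134.1:223-1873 held 9 entries and was read in every library. Its summed reads were 122 and 78 in 3NC, 408 and 27 in 5NC, 209 and 10 in overexpression, and 162 and 225 in knockdown. It includes novel_pir2924 of all 8 libraries, while 6 of its entries were private to knockdown 2. Among RTE-BovB copies the most entries were 8, at NC_030808.1:75492541-75493724, novel_pir3 to novel_pir10. Each was private, 5 to knockdown 1, 2 to overexpression 1 and 1 to knockdown 2, with 10 to 33 reads. That copy, named after its values were seen, was thus read in 3 libraries through entries that no 2 of them shared.

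RTE-BovB entries were concentrated on 1 sequence record. Of 366, 197 or 53.8% lay on NC_030808.1, and the next record held 26 or 7.10%. The same record held 11.5% of L1, 6.65% of L2, 10.1% of LTR and 8.0% of DNA repeat piRNAs. By copies the share of RTE-BovB was 48.2%, so it was not made by a few copies with many entries. The record had the highest listed position of all, and its share of the summed highest positions was 6.20%. In each library with at least 12 RTE-BovB entries the share stayed high, at 16 of 30 in 3NC 2, 7 of 12 in 5NC 2, 30 of 42 in overexpression 1, 99 of 157 in knockdown 1 and 45 of 125 in knockdown 2. How a read that matches many copies of a family was placed is not given in the sources used here, and the part of placement in this share was not tested. Over all LINE piRNAs, 1712 or 96.1% lay on 29 chromosome-level records and 69 on 20 smaller scaffolds.

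**Figure D5:**
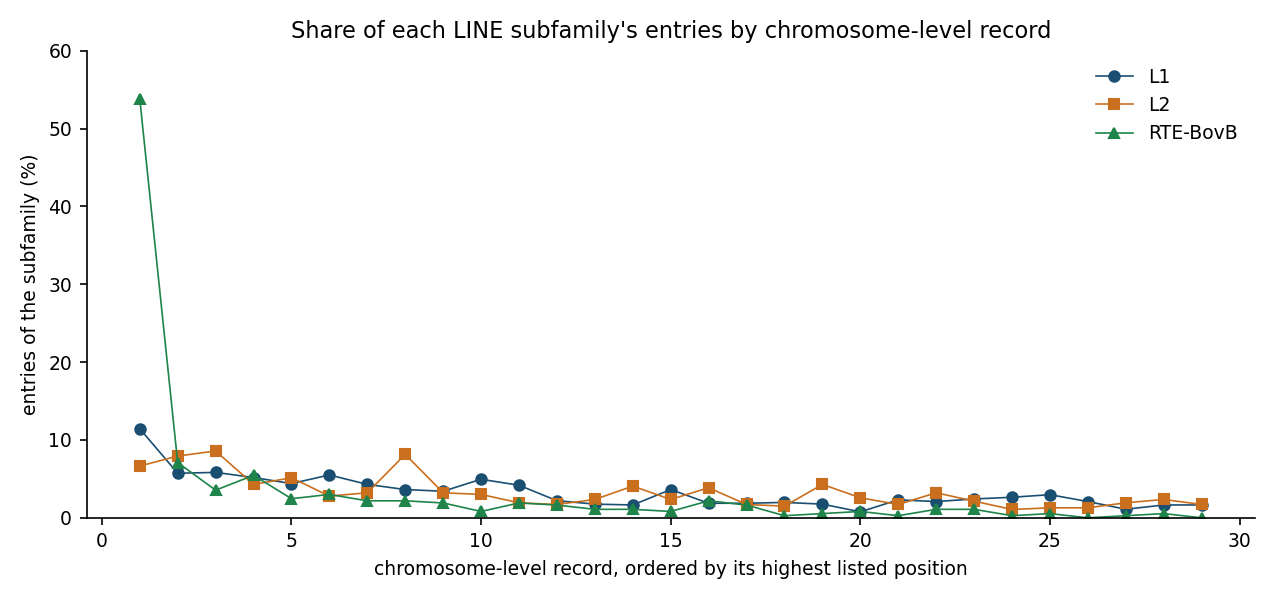
Share of each subfamily's entries (y axis, percent) on each of the 29 chromosome-level records, ordered from left by the highest position listed. RTE-BovB stands at 53.8% on the first record and at 7.10% or less on the others, while L1 is at 11.5% and L2 at 6.65% on the first.

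In the fit across all named features, 84 of the 1781 LINE piRNAs passed the filter on low counts, 54 of L1, 25 of L2, 2 of RTE-BovB and 3 of the other classes. All 84 were listed in at least 2 libraries, so the private entries were not tested one by one. No LINE piRNA passed an adjusted p of 0.05 in any of the 3 comparisons with edgeR, and 0% of the 970 tested features did. In overexpression against 5NC, 4 of 84 had an unadjusted edgeR p under 0.05, or 4.76% beside 8.35% of all features tested. DESeq2 called 2 of 84 or 2.38% there, beside 3.71% of all features. In knockdown against 3NC, 10 of 84 or 11.9% did, 5 higher and 5 lower, beside 15.7% of all features. DESeq2 called 15 of 84 or 17.9%, beside 30.2%. In 3NC against 5NC it was 5 of 84 or 5.95%, beside 7.32%, and DESeq2 called 0 beside 2.16% of all features. Groups did not overlap for 18 entries, or 21.4%, in overexpression against 5NC beside 32.5% of all features. For knockdown against 3NC this was 31 or 36.9% beside 53.6%, and for 3NC against 5NC 25 or 29.8% beside 42.8%. Several of these shares differ from the background by a few entries only, and no test of the differences was made. The biological coefficient of variation was 1.18 in the edgeR fit, so an entry without a call is not shown to be at the same level in both groups. The median log2 change of the 84 was 0.24 in overexpression, -0.17 in knockdown and 0.54 in 3NC against 5NC, and over all 970 features 0, -0.21 and 0.12.

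The number of knockdown calls changed with scaling and with single libraries. The 15 of DESeq2 were all lower, beside 29.5% of all features called lower. With its size factors in edgeR 3 of 88 were called, novel_pir2146, novel_pir1402 and novel_pir1602, also lower, beside 11.6% of all features. That scaling put the median of all features at -3.63 on the log2 scale. With all reads as library size edgeR called 1 of 93, novel_pir2146, lower, beside 1.28% of all features. With no filter the direction differed, as edgeR called 46 of 1781 or 2.58%, 45 of them higher, beside 1.71% of all features. Leaving out 1 library leaves a single library in its group, which is then assumed to vary like the other groups, and lets entries pass the filter through that library alone. Without knockdown 1, 742 LINE entries were tested and 265 were called, 264 of them higher, beside 19% of all features called and 18.5% called higher. These calls restate what knockdown 2 listed and give no direction for the group. Without knockdown 2, 2 of 370 were called, novel_pir372 higher and novel_pir2146 lower, beside 1.73% of all features. In the other 2 comparisons leaving out 5NC 2 called novel_pir857 alone, which passed through its 9330 reads in 5NC 1, beside 0.314% of all features in overexpression and 0.236% in 3NC against 5NC.

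The entries with the lowest p in overexpression against 5NC, none past the test, were novel_pir448, novel_pir447, novel_pir405, novel_pir2340 and novel_pir1136, with a smallest adjusted p of 0.48 in edgeR. The L2 entry novel_pir405 had 249 and 37 reads in 5NC and was listed at 0 in the other 6 libraries. The L1 entry novel_pir2340 had 26 and 32 reads in 3NC, 52 and 56 in 5NC, and 11 and 0 in knockdown, and was listed at 0 in overexpression. For novel_pir1136, also of L1, the counts were 48 and 98 in 3NC, 54 and 0 in overexpression, and 0 and 11 in knockdown, with 5NC at 0. The comparison of 3NC with 5NC shares the 5NC libraries, and its 5 entries with the lowest p were novel_pir448, novel_pir405, novel_pir1069, novel_pir447 and novel_pir1136, with a smallest adjusted edgeR p of 0.61. The L1 entry novel_pir1069 had 60 and 11 reads in 5NC and 58 and 12 in overexpression, and was listed at 0 in 3NC and knockdown.

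In knockdown against 3NC the lowest p belonged to novel_pir2146, novel_pir1402, novel_pir2180, novel_pir1602 and novel_pir2341, with a smallest adjusted p of 0.24 in edgeR. The L1 entry novel_pir1402 had 28 and 19 reads in 3NC, 175 and 27 in 5NC, 342 and 20 in overexpression, and 0 in both knockdown libraries. For novel_pir1602, in L1 too, the counts were 23 and 19 in 3NC, 27 and 12 in 5NC, 97 and 18 in overexpression, and 0 in knockdown. Each of these 5 was listed at 0 throughout 1 group, so no fold is given. The 10 reads that make an entry listed are 1.52 RPM in knockdown 1, which novel_pir1402 and novel_pir1602 exceeded in 3NC 1 but not in 3NC 2. In 3NC 1 they are 1.24 RPM, which novel_pir2180 and novel_pir2341 exceeded in knockdown 1 but not in knockdown 2.

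LINE piRNAs were more often private than those in DNA repeats, and LINE copies carried fewer entries than LTR or DNA copies. Over the 8 libraries the private share was 50.3 ± 33.1% for LINE and 41.5 ± 30.6% for DNA repeats (SD, n = 8), higher for LINE in 8 of 8 libraries (exact two-sided sign-flip permutation p = 0.0078, adjusted 0.0156 over 6 tests). Against LTR with 43.2 ± 31.4% it was higher in 7 of 8 (exact permutation p = 0.039, adjusted 0.0586), which did not pass. LINE copies held fewer entries each, 1.34 ± 0.167 per copy, than LTR with 1.80 ± 0.476 or DNA repeats with 2.75 ± 0.9996 (SD, n = 8). LINE was lower in every library (exact permutation, adjusted p = 0.0156 each). In knockdown 2, which listed the most entries, the gap was small, at 1.21 for LINE, 1.24 for LTR and 1.25 for DNA repeats. A mean per copy also depends on single copies, as the largest held 156 entries outside LINE and 14 in LINE. Median reads per entry were 18.6 ± 5.15 for LINE, 19.9 ± 4.62 for LTR and 18.1 ± 4.15 for DNA repeats, with no difference past the test (exact permutation, adjusted p = 0.51 and 0.84). The private share of a library depends on the lists of the other 7, so the 8 values are not independent of each other. A copy read in several libraries enters the mean per copy of each, so those 8 values are not independent either.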

How the data were processed

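Small RNA reads of 8 libraries were analysed from 1 table that the authors deposited. Per the file headers it holds, for each feature and library, a read count and a TPM value. The deposited counts were whole numbers and were used for all results. The deposited TPM equalled the count per 1000000 of the column total with no length term, within 0.136% over 151 member values of at least 100 reads, and was used only for this check. The sources used here do not name the aligner, the piRNA predictor, the genome build or the placement of reads with many matches, and positions are printed as the table gives them.

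Members were all piRNA entries whose position names a LINE class. Levels are reads per 1000000 of all reads of the table (RPM), which numbered 6588354 to 32066029 per library. Precision rests on these totals, and without molecular identifiers reads can be copies of 1 molecule. Predicted piRNAs had no positive count below 10, so the limit for an entry listed at 0 was taken as 10 reads in that library. Expected entries at equal depth were computed from the hypergeometric distribution.

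All 4786 named features (361 known miRNA names, with mature and hairpin counts summed, and every predicted or Rfam feature) were fitted in R 4.3.3 with edgeR 4.0.16: filterByExpr at a minimum count of 10, which kept 970, TMM factors (0.124 to 1.91), and its two-sided quasi-likelihood F test in robust form over all 8 libraries (residual degrees of freedom 4), with Benjamini-Hochberg adjustment at 0.05. The 4 summed classes without a feature name, 44.3% to 63.1% of the reads of a library, stayed out. The common dispersion was 1.39. The SE of a log2 change is its size divided by the root of F. DESeq2 1.42.0, other scalings, no filter, a replicate block and leaving out each library were alternatives. Summed levels were compared by exact permutation in scipy 1.17.1.

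Named entries were the 4 highest of each subfamily, the 5 with the lowest p per comparison where fewer than 3 passed, those in all 8 libraries, the top entry and top private entry of each library, and the 3 loci with most entries. Entries named beyond this rule share a copy with one of these, are among the 29 listed most widely, or are said to be chosen after their values were seen. The members, lists and rule were chosen with earlier results of these data known.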

Additional observations from a re-analysis of the deposited data

How the results depend on the processing

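Changing the denominator turned the direction of 2 summed-level ratios. On the log2 scale, overexpression against 5NC was 0.95 per known miRNA read, 1.04 per predicted piRNA read, 0.49 without the highest entry of each library and 0.55 without the 2 highest, the last chosen after seeing the data. It ran from -1.18 to 0.18 when single libraries were left out. 3NC against 5NC was 0.33, 0.86, 0.58 and 0.48 under the same 4 settings, with a range of -0.69 to 0.67. Without the 2 highest entries, L2 turned from -2.23 to 0.40 in overexpression against 5NC and from -1.10 to 0.45 in 3NC against 5NC. Knockdown against 3NC was 0.32 per predicted piRNA read, ran from 1.62 to 9.78 when single libraries were left out, and was positive in every alternative run. Per predicted piRNA read the libraries disagreed, as LINE took 28.2% and 99.6% in knockdown and 59.4% and 43.1% in 3NC. Knockdown 1 was thus below both 3NC libraries there. Of calls, DESeq2 gave 2 in overexpression and 15 in knockdown, with no adjusted p for 43 and 28 of the 84 entries. In knockdown, size factors gave 3 and all reads as library size 1, all lower, and no filter gave 46, of which 45 were higher. Leaving out single libraries gave 0 to 1 calls in overexpression, 0 to 265 in knockdown and 0 to 1 in 3NC against 5NC. Entries in all 8 libraries numbered 0 at a minimum of 20 reads and 7 without both knockdown libraries (both chosen after seeing the data), 0.000563 expected at equal depth, and 2 to 8 when single libraries were left out. Private entries numbered 626, 252, 586.6 and 599 to 1675 under the same settings. Groups share only replicate numbers, whose deviations correlated at -0.01, 0.19 and -0.01 over 970 features, and a replicate block left 0 calls in each comparison, with log2 ratios of -0.50, 5.72 and -0.02. Depth limits what can be read from an entry listed at 0.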
